A study of Mus musculus with 18 samples.

Results

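The ileum of 6 IEC-*Ppara* heterozygous mice was compared with the ileum of 6 controls by RNA-sequencing, which makes 12 of the 18 libraries of the series. The members were taken by the genotype label alone, with 1 library per mouse, and every library with either label was used. IEC-*Ppara* heterozygous mice carried 1 copy of the CAG-*Ppara*,-*EGFP* transgene in the safe harbor behind *Col1a1*, a strain from 1 founder clone, together with *Villin-CreERT2*. Controls were transgene carriers without *Villin-CreERT2*. The 6 IEC-*Ppara* homozygous mice, with 2 copies of the transgene and *Villin-CreERT2*, were used only where stated. All mice were on the C57BL6/J background, were fed chow, and received tamoxifen at 100 mg/kg on each of 3 days when 8 to 13 weeks old, and ileum was taken 2 weeks later. There were 2 females and 4 males among the heterozygous mice, and 3 females and 3 males among the controls. The villin promoter drives Cre in the intestinal epithelium, whereas the RNA came from the whole thickness of the distal small intestine, so each value also holds RNA of muscle, stroma and immune cells. *Villin-CreERT2* was present in every heterozygous mouse and in no control. Any effect of Cre itself, or of the chromosome segment it sits on, therefore cannot be told apart from that of PPARα in this comparison.

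PPARα is a nuclear receptor that is activated by fatty acids and binds DNA with a retinoid X receptor partner, usually at a direct repeat of a short half-site with 1 base between the repeats (DR1). Its known targets serve the uptake, binding and activation of fatty acids, their oxidation in mitochondria, peroxisomes and microsomes, ketone body synthesis, and the sparing of pyruvate. In the small intestine the receptor is best known from enterocytes, which handle dietary fat.

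The total of gene counts ranged from 38528522 to 50376371 over the 12 libraries. Levels are given as CPM, the reads of a gene scaled to the library's total. The ileal genes *Fabp6*, which carries bile acids in the enterocyte, and *Slc10a2*, the bile acid transporter of the ileum, were high in every library, with medians of 4066 and 505 CPM in controls and 3940 and 479 in heterozygous mice. The proximal genes *Lct* and *Gata4* lay below 3 CPM throughout. The summed CPM of 10 listed proximal genes, *Fabp1* among them, was 175 to 222 in controls and 250 to 352 in heterozygous mice. *Xist* and 4 Y-linked genes matched the labelled sex in all 12 libraries. In 3 libraries the summed CPM of 14 B cell markers stood apart, at 844 in control 2, 676 in control 3 and 485 in heterozygous 2, against 49.2 to 65.1 in the other 9. Values that move with these libraries are given below.

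*Ppara* was higher in every heterozygous mouse than in every control. The 6 controls ranged from 25.8 to 47.4 CPM with a median of 39.4, and the 6 heterozygous mice from 107 to 196 with a median of 136. The groups did not overlap, and the difference in mean of 103 CPM had the smallest p that an exact two-sided permutation test can give with 6 mice against 6 (p = 0.00216). In the fit across genes the log2 fold change was 1.92 ± 0.19 (SE). Whether a *Ppara* read came from the transgene or from the endogenous locus cannot be read from gene counts. *Ppard* and *Pparg*, the other members of the receptor family, and *Rxra*, the main partner, had log2 fold changes of 0.05, 0.12 and 0.04 and were not called.

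A gene was tested if it exceeded 3 CPM in 4 or more of the 12 libraries, which left 13411 genes, and was called if its adjusted p by edgeR's quasi-likelihood test was under 0.05. In the heterozygous ileum 24 genes rose (0.179% of those tested) and 0 fell (0.0%). At an unadjusted p under 0.05, 339 were higher and 305 lower, at one under 0.001, 47 were higher (0.35%) and 4 lower (0.0298%), and DESeq2 called 61 higher and 7 lower. With 1 library left out at a time 13 of the 24 genes were called in all 12 fits, whereas *Cda*, *Tm4sf4*, *Ces2b*, *Hsdl2*, *Retsat* and *Acadvl* were called in 2 to 6 of them. The fewest calls, 14, came without control 5. The 24 genes spanned log2 fold changes from 0.53 to 6.47 with a median of 1.55, against a median of -0.01 over all genes tested. In 23 of the 24 genes all 6 heterozygous mice lay above all 6 controls, which was the case for 40 of all genes tested (0.298%). The exception was *Acadvl*. The 24 genes were called from these same libraries, so their separation describes them and adds no evidence. Of the 24 genes, 16 more than doubled and 22 were protein-coding.

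**Figure D1:**
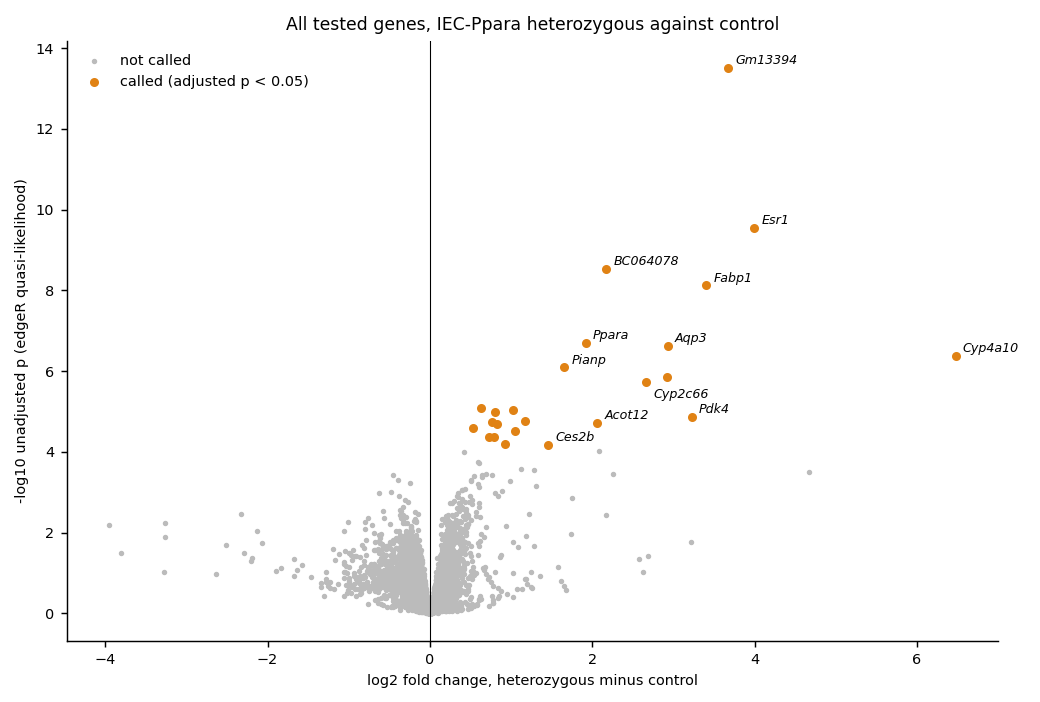
Each of the 13411 tested genes is plotted by its log2 fold change (heterozygous minus control, x axis) and by the negative log10 of its unadjusted p (y axis), with the 24 called genes in orange. All called genes lie right of 0, from 0.53 to 6.47, and *Gm13394*, *Esr1*, *BC064078* and *Fabp1* have the smallest p.

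Among the metabolic genes the smallest p belonged to a fatty acid binding protein. *Fabp1*, the liver-type fatty acid binding protein, lay between 6.30 and 14.1 CPM in controls (median 11.5) and between 62.5 and 161 in heterozygous mice (median 117). The lowest heterozygous mouse was thus far above the highest control, and the log2 fold change was 3.40 ± 0.26 (adjusted p = 2.52e-05). *Fabp2*, the intestinal-type binding protein, also did not overlap between the groups, with 851 to 1261 CPM in controls and 1335 to 1963 in heterozygous mice, but at a log2 fold change of 0.61 ± 0.14 it was not called (adjusted p = 0.216). Per length, *Fabp1* reached 201 ± 61.0 FPKM in heterozygous mice from 19.4 in controls (mean ± SD, n = 6). Of 18 tested genes for uptake, binding and activation of fatty acids, *Fabp1* alone was called, and the list had a median of 0.22, which was 0.12 without heterozygous 6 and 0.13 without heterozygous 4. The acyl-CoA synthetase *Acsl3* (0.81 ± 0.19, adjusted p = 0.266) and the acyl-CoA synthetase and transporter *Slc27a2* (0.64 ± 0.14, adjusted p = 0.149) were not called. The fatty acid transporter *Slc27a4* was at 0.22 ± 0.14 (adjusted p = 1), and its groups overlapped.

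Promoter sequence was looked at for the 24 called genes, each of which was higher in heterozygous mice. RefSeq promoter windows (build GRCm38.p6, 250 bases before to 50 after a gene start) were at hand for 19 of the 24 genes. The DR1 sequence AGGTCANAGGTCA, with up to 2 mismatches over its 12 fixed positions and on either strand, was found in windows of 3 of these genes, while 4.4% of the 27025 genes with a window held such a match. The 3 windows are shown because they hold the only matches among the called genes, with the match in capitals. In *Fabp1* (chr6:71199629-71199928, plus strand) the match TGACCTATGGCCT lies on the opposite strand with 1 mismatch and begins 67 bases before the gene start. In *Acot12* (chr13:91741271-91741570, plus strand) a match on the opposite strand with 1 mismatch begins 110 bases before it, and in *Slc25a20* (chr9:108661886-108662185, plus strand) a match with 2 mismatches begins 7 bases after it.
Fabp1: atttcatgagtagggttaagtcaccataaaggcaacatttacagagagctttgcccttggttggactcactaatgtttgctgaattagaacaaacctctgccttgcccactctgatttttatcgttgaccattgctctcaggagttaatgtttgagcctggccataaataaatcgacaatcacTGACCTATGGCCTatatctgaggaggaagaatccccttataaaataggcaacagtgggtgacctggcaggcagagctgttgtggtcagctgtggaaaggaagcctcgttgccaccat
Acot12: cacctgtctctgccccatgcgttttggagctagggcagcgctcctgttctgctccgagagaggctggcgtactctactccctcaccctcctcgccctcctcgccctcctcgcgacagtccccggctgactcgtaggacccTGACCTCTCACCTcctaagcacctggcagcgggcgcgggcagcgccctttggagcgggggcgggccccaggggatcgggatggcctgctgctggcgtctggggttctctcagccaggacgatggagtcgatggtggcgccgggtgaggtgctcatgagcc
Slc25a20: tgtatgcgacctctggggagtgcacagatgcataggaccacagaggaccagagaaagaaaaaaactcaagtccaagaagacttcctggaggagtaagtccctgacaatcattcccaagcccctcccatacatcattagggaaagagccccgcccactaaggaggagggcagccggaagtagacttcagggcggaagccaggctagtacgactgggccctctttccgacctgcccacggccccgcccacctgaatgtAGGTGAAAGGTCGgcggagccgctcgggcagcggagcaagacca
A match is a description of letters in these windows. It does not show that the receptor binds there, and the absence of these letters from the windows of the other 16 genes says nothing about sites elsewhere.

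Pyruvate use was represented by 1 called gene. *Pdk4*, a kinase that switches off the pyruvate dehydrogenase complex, lay between 1.31 and 16.1 CPM in controls and between 45.7 and 114 in heterozygous mice (log2 fold change 3.22 ± 0.47, adjusted p = 0.0128). The groups did not overlap. The other 11 genes of the complex, its kinases and its phosphatases had a median of 0.02, and *Pdk1*, *Pdk2* and *Pdk3* were at -0.11, 0.08 and 0.05.

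Mitochondrial fatty acid oxidation held 2 called genes, both with small fold changes. *Slc25a20*, the carnitine-acylcarnitine carrier of the inner membrane, had 68.2 to 95.4 CPM in controls and 106 to 140 in heterozygous mice (0.63 ± 0.09, adjusted p = 0.00973). *Acadvl*, the dehydrogenase for very long chains, had 60.5 to 81.3 CPM in controls and 78.8 to 101.1 in heterozygous mice (0.53 ± 0.08, adjusted p = 0.0181), and heterozygous 1 was the mouse that lay within the control range. These were the called members among 25 tested. The list had a median log2 fold change of 0.28. In it 23 members were above 0, against 46.8% of all genes tested, and 17 had an unadjusted p under 0.05 upward, against 2.53%. Among members that were not called, *Hadha* and *Hadhb*, the subunits of the trifunctional protein, were at 0.39 ± 0.09 and 0.37 ± 0.10, the electron acceptor *Etfdh* at 0.43 ± 0.10, and *Cpt1a* and *Cpt2*, the carnitine palmitoyltransferases, at 0.34 ± 0.10 and 0.31 ± 0.10. In each of these the highest controls reached into the heterozygous range. By contrast the 48 nuclear-encoded and 13 mitochondrially encoded genes of oxidative phosphorylation had medians of 0.02 and 0.08, with none called and none at an unadjusted p under 0.05. The nuclear-encoded median lay between -0.01 without control 2 and 0.06 without control 1. The mitochondrially encoded one lay between 0.04 without heterozygous 5 and 0.12 without control 1. In males alone the 2 medians were 0.13 and 0.20, and that of mitochondrial fatty acid oxidation was 0.43.

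Peroxisomal genes held 2 called members. *Hsdl2*, a peroxisomal short-chain dehydrogenase, had 23.2 to 37.6 CPM in controls and 40.5 to 61.6 in heterozygous mice (0.73 ± 0.12, adjusted p = 0.0269). *Pxmp4*, a peroxisomal membrane protein, had 19.9 to 28.5 and 30.1 to 51.2 CPM (0.82 ± 0.13, adjusted p = 0.0155). Neither gene overlapped between the groups, and they were the called members of 47 tested, in a list with a median of 0.12. The thiolase *Acaa1b* just missed the threshold at 2.08 ± 0.37 (adjusted p = 0.0523), although its 4.96 to 22.3 CPM in controls and 28.4 to 63.8 in heterozygous mice did not overlap. The bifunctional enzymes *Hsd17b4* and *Ehhadh* were at 0.59 ± 0.11 and 0.52 ± 0.13 and catalase (*Cat*) at 0.50 ± 0.11. None of these passed. The import factors *Pex5*, *Pex13* and *Pex14* were at 0.09, 0.10 and 0.14, whereas *Pex11a*, which divides peroxisomes, was at 0.37 ± 0.11 with no overlap between the groups.

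Microsomal oxidation held the largest fold change. *Cyp4a10*, a fatty acid omega-hydroxylase and a classical PPARα target, was close to absent in controls, at 0 to 0.195 CPM or 0 to 8 reads per library, and had 1.92 to 13.8 CPM in heterozygous mice (log2 fold change 6.47 ± 0.69, adjusted p = 0.000789). All heterozygous mice lay above all controls, and 29.8% of the 50-base words of its transcripts also occur in *Cyp4a32* or 1 other gene, so its counts are partly uncertain between these copies. *Cyp4a10* passed the filter through heterozygous libraries alone, so its being tested already depended on high values there. *Cyp4a14*, its close relative, stayed at 0 to 0.0794 CPM in both groups and was not tested. The genes *Cyp2c66* and *Cyp2c65*, members of a P450 family that oxidises unsaturated fatty acids, share 379 such words. *Cyp2c66* rose from 1.54 to 3.67 CPM to 5.89 to 24.6 (2.66 ± 0.32, adjusted p = 0.00244). *Cyp2c65* rose from 39.6 to 58.0 CPM to 71.6 to 132 (1.18 ± 0.18, adjusted p = 0.015). Among 25 tested genes of omega-oxidation and the P450 family these 3 were called and the median was 0.22. *Cyp1a1*, a target of the aryl hydrocarbon receptor, was the lowest at -2.13 ± 0.70 (adjusted p = 0.694), with 2.71 to 40.9 CPM in controls and 1.24 to 4.07 in heterozygous mice, which overlap. *Cyp4b1*, at 0.69 ± 0.14, and the fatty aldehyde dehydrogenase *Aldh3a2*, at 0.50 ± 0.11, were not called (adjusted p = 0.142 and 0.164).

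Lipid droplet genes, thioesterases and retinoid genes followed. *Hsd17b11*, a lipid droplet protein of the short-chain dehydrogenase family, was the most abundant of the 24 genes in CPM, with 202 to 233 in controls and 294 to 478 in heterozygous mice (0.80 ± 0.11, adjusted p = 0.0108). *Ces2b*, a carboxylesterase, had 8.63 to 14.2 and 18.8 to 50.6 CPM (1.45 ± 0.25, adjusted p = 0.0372). Both groups were separate in both genes. In the list of 22 tested droplet and lipolysis genes these were the 2 called members, with a median of 0.27 (0.43 without control 4). The droplet coat gene *Plin2* had 64.6 to 98.4 CPM in controls and 92.4 to 141 in heterozygous mice (0.54 ± 0.11, adjusted p = 0.144), and the lowest heterozygous mouse lay below the highest control. *Acot12*, an acyl-CoA thioesterase, rose from 0.83 to 3.52 CPM to 5.35 to 10.7 (2.06 ± 0.31, adjusted p = 0.015), as 1 of 11 tested thioesterases with a median of 0.17. *Retsat*, which saturates all-trans-retinol, rose from 29.2 to 45.03 CPM to 48.8 to 91.5 (1.04 ± 0.17, adjusted p = 0.02), while the other 14 tested retinoid genes had a median of 0.19 and none was called. With sex as a covariate no retinoid gene was called, *Retsat* included.

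Of the remaining called genes, *Aqp3*, a channel for water and glycerol, rose from 1.37 to 3.10 CPM to 7.56 to 19.6 (2.93 ± 0.30, adjusted p = 0.000527). *Aqp7*, another channel for glycerol, was at 0.49 ± 0.12 and was not called (adjusted p = 0.294). *Gal3st2b*, a galactose sulfotransferase, had 20.7 to 28.7 and 39.2 to 64.2 CPM (1.02 ± 0.14, adjusted p = 0.0103), with 84.4% of its 50-base words shared with *Gal3st2* and *Gal3st2c*, so its counts are uncertain between these copies. *Cda*, cytidine deaminase, had 19.3 to 34.7 and 37.9 to 64.2 CPM (0.93 ± 0.16, adjusted p = 0.0372). *Tm4sf4*, a tetraspan membrane protein, had 30.5 to 51.6 and 53.6 to 67.2 CPM (0.78 ± 0.13, adjusted p = 0.0268). None of these 4 genes overlapped between the groups. *1810065E05Rik*, a gene without a named function, is reported after its values were seen, with 26.8 to 37.8 CPM in controls and 40.8 to 62.3 in heterozygous mice (0.77 ± 0.12, adjusted p = 0.015).

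**Figure D2:**
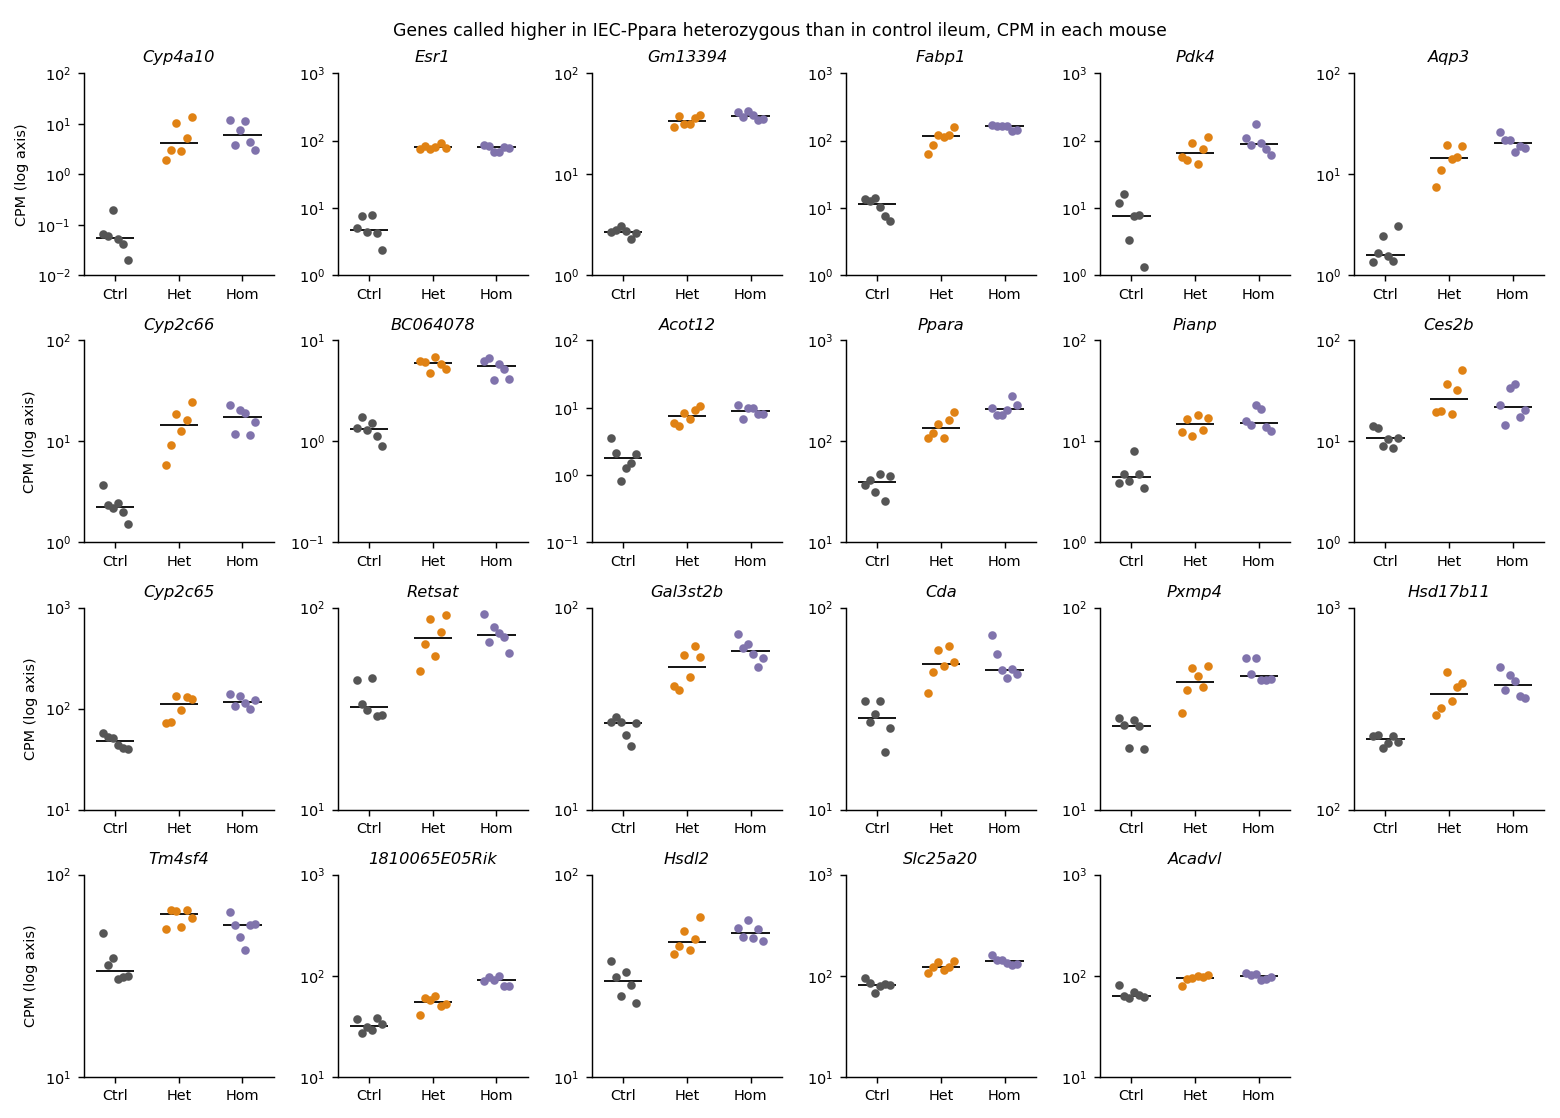
Each panel shows 1 of 23 of the 24 called genes, with CPM on a log axis for the 6 control (grey), 6 heterozygous (orange) and 6 homozygous (purple) mice and a bar at each group's median. The control library without a *Cyp4a10* read is drawn at 0.02 CPM. Heterozygous and control points are separate in every panel but *Acadvl*, and *Esr1*, *Gm13394* and *BC064078* are tight where *Cyp4a10* and *Cyp2c66* are spread.

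Among 62 tested genes in a list of known PPARα targets, 10 were called, and the median log2 fold change was 0.42. In this list 61 genes were above 0, against 46.8% of all genes tested, the exception being the lipase inhibitor *G0s2*. In 17 of the 62 all heterozygous mice lay above all controls (0.298% of all genes tested), and 47 had an unadjusted p under 0.05 upward (2.53% of all genes tested). The list was written with results on these samples known and shares members with the pathway lists, so it is not independent evidence of a direction. Of its other 8 genes, which did not pass the filter on low values, *Fgf21*, *Cyp4a14* and *Cyp4a31* were near 0 in both groups. Targets best known from fat cells, *Plin4*, *Abcd2* and *Cidec*, varied as much within a group as between groups, for instance *Plin4* with 0.151 to 109 CPM in controls and 0.506 to 105 in heterozygous mice.

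**Figure D3:**
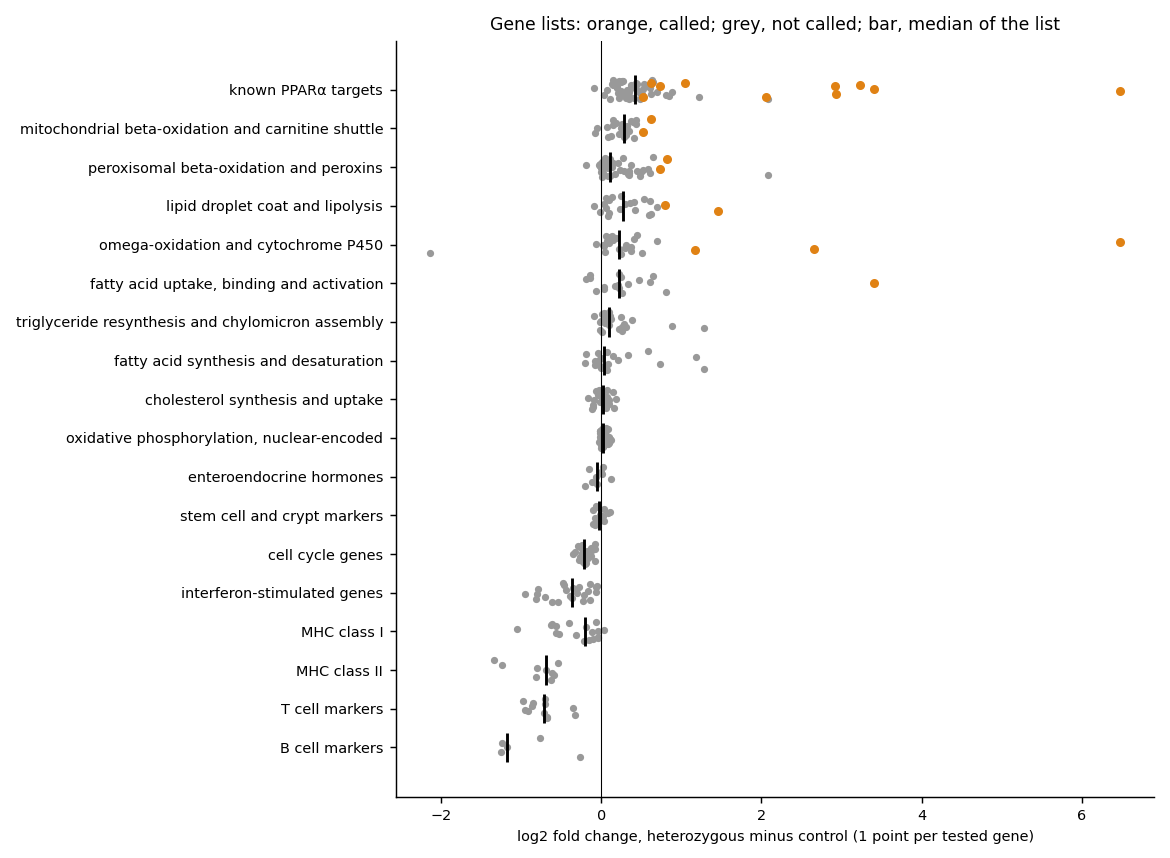
Every point is a tested gene at its log2 fold change (heterozygous minus control, x axis) in 18 of the lists (y axis), orange where called, with a bar at the list's median. Medians run from 0.42 in the known PPARα targets through 0.02 in oxidative phosphorylation and cholesterol synthesis to -1.18 in B cell markers, and no called gene lies left of 0.

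Genes for packaging fat gave no call by edgeR and 1 by DESeq2. The 24 tested genes of triglyceride resynthesis and chylomicron assembly had a median of 0.09 (0.16 without control 6). Of these 20 were above 0, against 46.8% of all genes tested, and 5 had an unadjusted p under 0.05 upward, against 2.53%. *Apoa4*, an apolipoprotein of chylomicrons, had the highest value at 1.29 ± 0.49 (adjusted p = 0.861), with 12.4 to 56.7 CPM in controls and 36.0 to 185 in heterozygous mice, and *Apob*, *Mttp* and *Dgat1* were at 0.31, 0.25 and 0.09. *Creb3l3*, a liver and gut transcription factor that acts with PPARα, did not overlap between the groups (72.4 to 158 CPM in controls, 170 to 306 in heterozygous mice) but missed the threshold at 0.88 ± 0.21 (adjusted p = 0.248). Fatty acid synthesis (21 tested) had a median of 0.04, and cholesterol synthesis and uptake (28 tested) one of 0.02. By edgeR without a covariate neither list had a called gene in the 12 libraries. The fatty acid synthesis median lay between -0.04 without heterozygous 6 and 0.07 without heterozygous 2. That of cholesterol synthesis and uptake lay between -0.05 without heterozygous 5 and 0.09 without heterozygous 2. In fatty acid synthesis 1 gene was called by DESeq2, by edgeR with the smooth muscle score as a covariate and by edgeR with all 18 libraries in 1 fit. *Acacb*, whose product makes the malonyl-CoA that restrains carnitine palmitoyltransferase, was the largest value among the synthesis genes at 1.28 ± 0.26 (adjusted p = 0.123), with 6.53 to 17.4 CPM in controls and 20.6 to 55.8 in heterozygous mice.

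Enteroendocrine hormone genes gave no call. Of 9 tested, *Gcg*, the glucagon-like peptide precursor, had 42.6 to 64.5 CPM in controls and 41.4 to 56.4 in heterozygous mice (-0.05 ± 0.10), and *Pyy* had 38.4 to 55.7 and 28.7 to 54.5 (-0.06 ± 0.14). *Sct*, *Tph1* and *Gip* were at 0.01 ± 0.10, 0.03 ± 0.12 and -0.12 ± 0.34, and the groups overlapped in all 5 genes. *Ghrl* (1.03 to 2.00 CPM in controls, 0.865 to 1.46 in heterozygous mice) and *Ppy* (0.195 to 0.738 and 0.169 to 0.970) were too low to be tested. The epithelial marker lists (enterocyte, goblet cell, Paneth cell, stem cell, tuft cell) had medians between -0.03 and 0.12, and none of their genes was called. With 1 library left out the 5 medians lay between -0.07 (tuft cell, without heterozygous 5) and 0.20 (goblet cell, without control 1). The goblet cell median, 0.12 over all libraries, was 0.06 without control 4. The enterocyte median, 0.06 over all libraries, was 0.15 without control 6 and -0.03 without heterozygous 5.

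A further 4 of the 24 called genes lay outside the metabolic lists. *Esr1*, estrogen receptor alpha, had 2.34 to 7.84 CPM in controls and 75.9 to 92.8 in heterozygous mice (3.99 ± 0.23, adjusted p = 1.88e-06), and the other 6 tested estrogen receptor genes and targets had a median of -0.03. The CreERT2 protein contains a mutated ligand-binding domain of the estrogen receptor, and whether these reads came from the endogenous gene or from CreERT2 was not tested. *Pianp*, a neural membrane protein gene (chr6:124996694-125003096) had 3.48 to 7.97 and 11.4 to 18.2 CPM (1.65 ± 0.19, adjusted p = 0.00134), and the pseudogene *BC064078* (chr6:128992952-129008040) had 0.907 to 1.75 and 4.81 to 6.81 (2.17 ± 0.15, adjusted p = 1.3e-05). *BC064078* passed the filter through heterozygous libraries alone. *Gm13394*, a processed pseudogene (chr2:28933610-28934609), had 2.30 to 3.07 and 29.6 to 38.9 CPM (3.68 ± 0.10, adjusted p = 4.13e-10). It shares 901 of its 951 50-base words with *Gapdh*, which lies at chr6:125161715-125166467 and was itself at -0.14 ± 0.09 (adjusted p = 1). None of these 4 genes overlapped between the groups.

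The positions of *Pianp*, *BC064078* and *Gapdh* led to a closer look at distal chromosome 6, a region chosen after its values were seen. Without a filter on low values 30 of 37095 genes were called (0.0809%), 7 of them between positions 124996694 and 132572941. Besides *Pianp* and *BC064078* these were *Clec2j*, *Gm44216*, *Gm5154*, *Gm45063* and *Prh1*. The ends of this span were set by the outermost of these 7 genes, so all 7 lie within it by construction. *Clec2j*, of the C-type lectin family, had 0 to 0.253 CPM in controls and 1.13 to 3.48 in heterozygous mice. *Prh1*, a proline-rich protein gene, and *Gm45063* had 0 reads in all 6 controls, which allows up to 3 reads per library, and 0.464 to 1.79 and 0.493 to 0.971 CPM in heterozygous mice. The span held 53 tested genes, *Pianp* and *BC064078* among them. Of the 53, 24.5% had an unadjusted p under 0.05, 6 higher and 7 lower, against 4.8% of all genes tested. Among them *Klrb1*, an NK cell receptor gene, was at 2.25 ± 0.47 (adjusted p = 0.142), and *Ybx3* and *Rad51ap1*, at -0.24 ± 0.05 and -0.48 ± 0.11, were 2 of the 5 lower genes with the smallest p in the whole comparison. Both had all 6 heterozygous mice below all 6 controls, as did 0.172% of all genes tested, with 144 to 163 CPM against 173 to 194 for *Ybx3*. Homozygous mice, which also carry *Villin-CreERT2*, had medians of 15.2 CPM for *Pianp*, 5.54 for *BC064078*, 37.5 for *Gm13394* and 159 for *Ybx3*, each within the heterozygous range.

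The 24 genes differed in how evenly the heterozygous mice expressed them. The coefficient of variation over the 6 heterozygous mice was 7.72% for *Esr1*, 11.2% for *Gm13394* and 12.4% for *BC064078*. It was 25.1% for *Ppara*, 30.4% for *Fabp1*, 46.5% for *Cyp2c66* and 77.0% for *Cyp4a10*. These genes are examples, and others of the 24 also varied little. *Acadvl* had 78.8 CPM in heterozygous 1 and 93.7 to 101.1 in the other heterozygous mice. Heterozygous 1 had the lowest value of the 6 in 17 of the 24 genes, and heterozygous 6 the highest in 13. The number of the 62 target genes above the highest control was 23 in heterozygous 1, 37 in heterozygous 2, 44 in heterozygous 3, 39 in heterozygous 4, 42 in heterozygous 5 and 48 in heterozygous 6. The same count over all genes tested was not made, so how far the targets exceed it is not known. *Ppara* was 107, 122, 149, 108, 164 and 196 CPM in the same mice. Heterozygous 1 was lowest and heterozygous 6 highest in both measures. For the strongest genes even heterozygous 1 stood clear of the controls, with 62.5 CPM of *Fabp1* against at most 14.1, whereas the median target gene of heterozygous 1 was 0.15 above the control mean on the log2(CPM + 0.5) scale and that of control 1 was 0.18 above it.

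**Figure D4:**
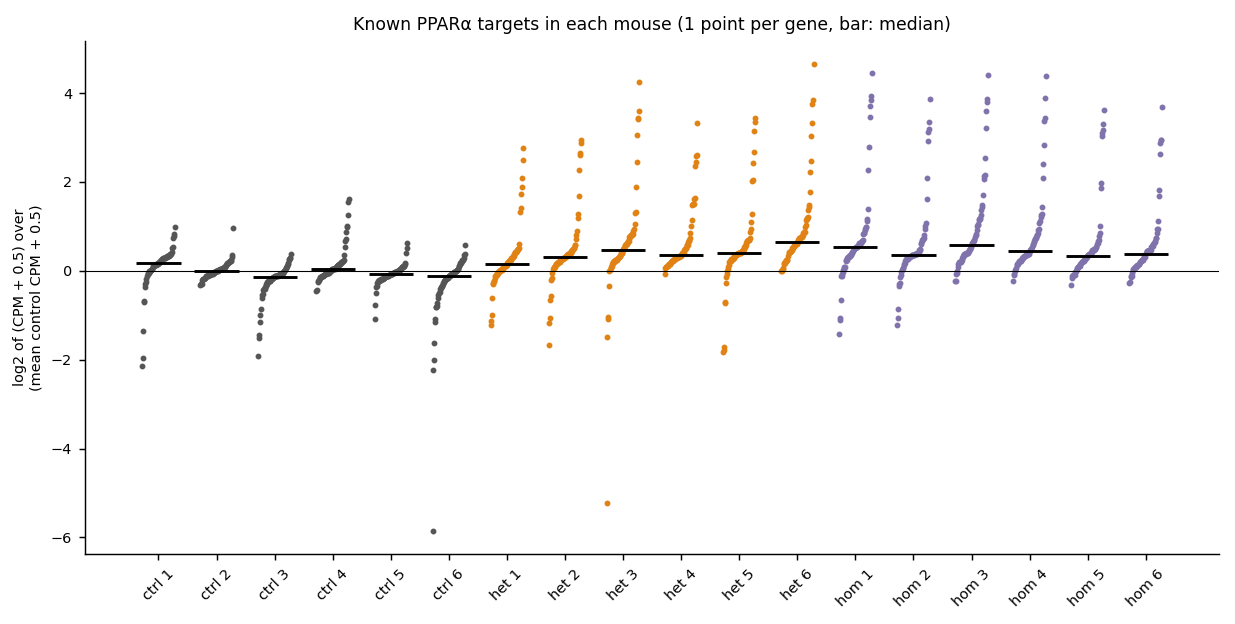
Each point is 1 of the 62 tested PPARα target genes in 1 mouse, as the log2 ratio of CPM + 0.5 to the mean control CPM + 0.5 (y axis), for all 18 mice (x axis), with a bar at the median. The bars of heterozygous 1 and control 1 lie at 0.15 and 0.18 and that of heterozygous 6 at 0.65, and the 2 lowest points, in control 6 and heterozygous 3, are *Plin4*.

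The genotype effect was also set apart by sex, with 2 heterozygous females, 1 and 2, against 3 control females, and 4 heterozygous against 3 control males. *Ppara* had a log2 fold change of 1.38 in females and 2.29 in males, *Fabp1* of 2.88 and 3.55, and *Cyp2c66* of 1.55 and 3.12. The estimate was larger in males for 23 of the 24 genes, with a median difference of 0.57 against 0.03 over all genes tested, and for 12 of the 24 the unadjusted interaction p was under 0.05, as for 6.75% of all genes. No gene passed the adjusted threshold for the interaction (0 of 13411, 905 at an unadjusted p under 0.05), the smallest unadjusted p among the 24 being 0.00474 for *Cyp2c66* (adjusted p = 0.356). DESeq2 called 11 genes with a larger and 145 with a smaller estimate in males. Heterozygous 1 is 1 of only 2 heterozygous females, so sex and that mouse cannot be told apart here, and the B cell-rich libraries were 1 heterozygous female and 2 control males. In the 7 male libraries alone, 27 genes were called higher and 6 lower, the 6 being the MHC class II pathway genes *Cd74*, *H2-Aa*, *H2-Ab1*, *H2-Eb1*, *H2-DMa* and *H2-DMb1*. Of the 3 control males 2 were B cell-rich, and the part of B cells in these 6 calls was not tested.

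Several lists of immune genes had medians below 0 in heterozygous mice, with no call by edgeR over all 12 libraries. Macrophage and dendritic cell markers (13 tested) had a median of -0.15, between -0.25 without heterozygous 4 and -0.03 without control 4. Plasma cell markers (9 tested) had a median of -0.05, between -0.12 without heterozygous 1 and 0.02 without heterozygous 6. Neither list had a member at an unadjusted p under 0.05. The 9 tested genes of the MHC class II pathway, which presents antigen to CD4+ T cells, were all below 0, with a median of -0.69, and 6 had an unadjusted p under 0.05 (2.27% of all genes tested were lower at that threshold). *Cd74*, the invariant chain, had 630 to 1314 CPM in controls and 477 to 1024 in heterozygous mice (-0.63 ± 0.23, adjusted p = 0.822). The summed class II level was 2896 and 2651 CPM in the B cell-rich controls 2 and 3 and 1330 to 2266 in the other 4. It was 2238 in the B cell-rich heterozygous 2 and 1013 to 1369 in the other 5, which overlaps the controls. In the 9 libraries low in B cell markers the class II median was -0.59. T cell markers (12 tested, median -0.71), MHC class I genes (18 tested, median -0.20) and interferon-stimulated genes (23 tested, median -0.36) likewise had no call by edgeR and, apart from *H2-T3* of the class I genes at 0.03, no member above 0. The class I peptide transporter *Tap2*, at -0.40 ± 0.09 (adjusted p = 0.164), and the immunoproteasome subunit *Psmb9*, at -0.63 ± 0.15 (adjusted p = 0.266), were among the 5 lower genes with the smallest p, and DESeq2 called both. Without control 6 the median was -0.13 for the class I genes and -0.17 for the interferon-stimulated genes. B cell markers (5 tested) had a median of -1.18, which became -0.09 in the 9 libraries, -0.55 without control 2, -0.63 without control 3 and -2.54 without heterozygous 2. In bulk tissue, fewer cells of a type and less RNA per cell cannot be told apart.

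**Figure D5:**
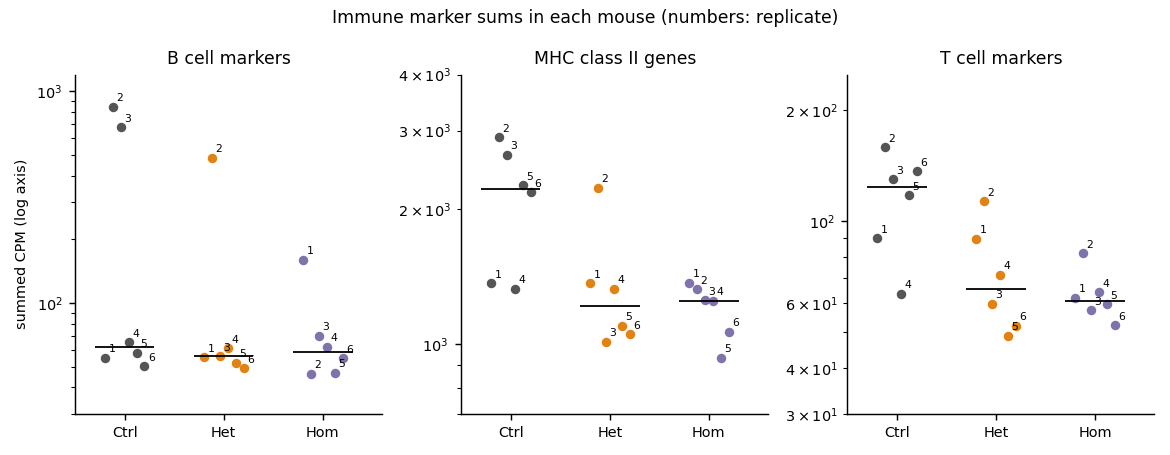
Summed CPM of 14 B cell markers, 11 MHC class II genes and 15 T cell markers (log axis) in each control (grey), heterozygous (orange) and homozygous (purple) mouse, numbered by replicate, with a bar at the median. B cell sums of control 2, control 3 and heterozygous 2 stand at 844, 676 and 485 CPM, and class II sums of heterozygous mice other than 2 lie between 1013 and 1369.

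Cell cycle genes gave no call. All 22 tested genes had values below 0, with a median of -0.22, and 13 had an unadjusted p under 0.05 (2.27% of all genes tested were lower at that threshold), the replication helicase genes *Mcm3* and *Mcm5* being at -0.35 ± 0.10 and -0.33 ± 0.10 and the ribonucleotide reductase gene *Rrm1* at -0.27 ± 0.07. In the 9 libraries low in B cell markers the median was -0.25. The lower gene with the smallest p of all, *Mms22l*, which acts in the repair of replication forks, had 7.82 to 9.71 CPM in controls and 4.89 to 7.35 in heterozygous mice, with no overlap (-0.45 ± 0.10, adjusted p = 0.142). Stem cell and crypt markers had a median of -0.02. Smooth muscle markers (10 tested, median -0.19, between -0.37 without control 6 and 0.003 without heterozygous 3, none called) varied within groups, with summed levels of 682 to 6140 CPM in controls and 852 to 4510 in heterozygous mice, and the part of muscle content in these values was not tested.

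A second copy of the transgene was compared with the first by fitting homozygous against heterozygous libraries, of which the heterozygous ones are those described above. *Ppara* had 184 to 279 CPM in homozygous mice, 4 of which lay above the highest heterozygous mouse, and the log2 difference was 0.59 ± 0.16 (unadjusted p = 0.00326, adjusted p = 0.59). Over 13401 genes tested 0 were called (0.0%), with 1121 at an unadjusted p under 0.05 (8.37%), and DESeq2 called 7 higher and 14 lower. Without heterozygous 4, edgeR called 3 higher and 1 lower, and without heterozygous 1 it called 1 higher. Of the 24 genes 19 had a higher estimate in homozygous mice, with a median difference of 0.15 against 0.0008 over all genes tested. The 24 were called for high values in these same heterozygous libraries, so the difference is not independent of that choice. *1810065E05Rik* had 79.0 to 98.3 CPM in homozygous mice, all above all heterozygous mice, as did 0.134% of genes, and came nearest the threshold (0.69 ± 0.09, adjusted p = 0.072). *Fabp1* (0.48 ± 0.18), *Aqp3* (0.49 ± 0.20) and *Pdk4* (0.44 ± 0.27) were higher on average, whereas *Retsat* and *Acadvl* were at 0.04 ± 0.15 and 0.05 ± 0.07, and *Ces2b* and *Tm4sf4* at -0.33 ± 0.28 and -0.20 ± 0.11. *Esr1* and *BC064078* were at -0.10 ± 0.09 and -0.14 ± 0.15. The spread of *Fabp1* narrowed from a coefficient of variation of 30.4% in heterozygous to 8.58% in homozygous mice, a difference that was not tested.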

How the data were processed

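Whole-thickness ileum was sequenced as poly-A RNA, with 1 library per mouse. Reads were aligned by the authors to GRCm38 with STAR, and featureCounts counted uniquely aligned reads per gene. The deposited counts (55487 genes) carry no normalization. The deposited CPM values are these counts scaled to the library total, and the deposited FPKM values divide them by gene length as well. CPM were used for levels in each mouse, FPKM for levels between genes, and counts for every fit. Strand use in counting is not given in the sources used here. The deposited log2 CPM table was not used.

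Genes with over 3 CPM in at least 4 of the 12 libraries were tested with edgeR 4.0.16 (TMM, glmQLFit and glmQLFTest, no covariate, all biotypes) in R 4.3.3, and a gene is called at a Benjamini-Hochberg adjusted p under 0.05. Errors of log2 fold changes are standard errors from the fit, taken as the estimate divided by the root of F. Homozygous against heterozygous libraries were fitted alike, with their own filter, and the interaction of genotype with sex in the 12 libraries. The scripts were tested on simulated data. *Ppara* was also tested by an exact two-sided permutation of mean CPM. Fold changes of low genes depend on the prior count.

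Genes named are the 20 largest rises among called genes, the 5 lower genes with the smallest p, called or defining members of lists, genes named in the study's RNA-seq results, and label checks. Members and lists were chosen with earlier results of these data known. A list is described by its counts and median beside all genes tested, and lists overlap. Of the called genes, 1 is counted but not reported by name. Nothing says whether mice with the same number share a litter. Alternatives were DESeq2 1.42.0, limma-voom (3.58.1), other scaling and filters, protein-coding genes only, all 18 libraries, covariates for sex, B cell and smooth muscle scores (mean log2 CPM, prior count of 2), the replicate number as a block and leaving out each library. Fits of males only and of the 9 libraries low in B cell markers were added after the data were seen. Words of 50 bases were compared over GENCODE vM21 transcripts. Tables and figures used pandas 2.3.3 and matplotlib 3.10.9 in Python 3.11.15.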

Additional observations from a re-analysis of the deposited data

Results flagged for a closer look

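In the control and heterozygous groups of 6, the highest or lowest CPM was checked in 74 groups for a gap to the next mouse above Dixon's critical value, which chance gives in about 1 of 20 groups. Such a gap was found in 4. *Cyp4a10* was 0.195 CPM in control 3 and at most 0.0652 in the other controls. *Pianp* was 7.97 CPM in control 4 and 3.48 to 4.79 in the other controls. *Esr1* was 92.8 CPM in heterozygous 5 and 75.9 to 82.1 in the other heterozygous mice. *Acadvl* was 78.8 CPM in heterozygous 1 and 93.7 to 101.1 in the other heterozygous mice.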

How the results depend on the processing

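The 24 calls in heterozygous against control mice were 61 higher and 7 lower with DESeq2 (all 24 among them), 41 higher with all 18 libraries in 1 fit and 7 higher in the 9 libraries low in B cell markers, where fewer samples were fitted. With sex as a covariate 21 genes were called, 19 of the 24 among them, and with the B cell score 20, all among the 24. With either covariate the peroxisomal and the droplet list held 1 call each. In males alone 6 were lower. Leaving out 1 library gave 14 to 34 higher (14 without control 5) and 0 lower, and 13 genes were called in all 12 such fits. *Cyp4a10*, *Esr1*, *Gm13394*, *Fabp1*, *Aqp3*, *BC064078* and *Ppara* were called in every fit that tested them. Called members over all lists numbered 18, and 47 with DESeq2, 32 with all 18 libraries, 28 in males, 5 in the 9 libraries and 10 to 25 when 1 library was left out. Same-numbered mice did not deviate together (correlations of -0.46 to 0.50, 1 of 6 controls closest to its own number), and with the replicate block 8 genes were called, 6 of them list members. Homozygous against heterozygous gave 7 higher and 14 lower with DESeq2, 1 higher with all 18 libraries, and 0 to 3 higher and 0 to 1 lower when 1 library was left out, and 0 with the replicate block. The interaction with sex gave 11 higher and 145 lower in males with DESeq2 and 152 lower without a filter. The cause of these differences was not tested. Medians of some lists changed sign, that of smooth muscle markers from -0.19 to 0.03 with the smooth muscle score as a covariate and those of lists near 0, such as nuclear-encoded oxidative phosphorylation to -0.02 in the 9 libraries. Hormone genes near 0 changed sign too (log2 fold changes). *Gip* came to 0.01205 with limma-voom, 0.251 in males and -0.3236 to 0.005227 with 1 library left out. *Tph1* came to -0.01167 with the B cell score, -0.003101 with library size, -0.0007155 with sex as a covariate and -0.03241 to 0.1125 with 1 library left out. In males *Gcg* came to 0.02051 and *Pyy* to 0.06997, and their ranges with 1 library left out were -0.08639 to 0.009649 and -0.1263 to 0.03229. *Sct* came to -0.01543 with library size, -0.0821 in the 9 libraries and -0.03425 to 0.0822 with 1 library left out. By exact permutation test *Ppara* had p = 0.00216 on both other scales and without each library and p = 0.0312 within the replicate block, each the smallest that test can give because the groups do not overlap, so these p-values say nothing about stability. The difference in mean was 91.9 to 110 CPM with 1 library left out.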
